A study of Homo sapiens with 5 samples.

Results

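SR proteins and heterogeneous nuclear ribonucleoproteins (hnRNPs) are the main RNA-binding regulators of splice-site choice, and their mRNAs are described here in SH-SY5Y, a human neuroblastoma line that retinoic acid can turn neuron-like. The members were all symbols made of SRSF and a number, or of HNRNP and further letters and digits without the pseudogenes, with TRA2A and TRA2B added. This gave 39 of 26364 symbols, 14 of them SR or TRA2 proteins and 25 hnRNPs. Each of the 5 groups was 1 library of SH-SY5Y RNA read at its polyadenylated ends. They were cells given an siRNA against STAU1 (siSTAU1), against UPF1 (siUPF1) or a control siRNA (siControl), and cells labelled Differentiation and Nondifferentiation. Serum at 10% and antibiotics at 1% were listed in the medium of all 5. Retinoic acid at 50 uM was listed for both Differentiation and Nondifferentiation and for no siRNA group, so the media labels do not separate that pair and its titles were used. CYP26A1, an enzyme that degrades retinoic acid and is induced by it, had a log2 value of 14.38 in Differentiation, against a listed 0 in Nondifferentiation. The design text asks which transcripts were higher both with depletion of UPF1 and STAU1 and with differentiation. It also holds that STAU1 and UPF1 fall with differentiation. In these libraries STAU1 mRNA stood at 12.86 in both Differentiation and Nondifferentiation. UPF1 mRNA stood at 10.69 in Differentiation against 10.62 in Nondifferentiation. Their proteins were not measured here. The labels give neither the siRNA sequences nor the times after transfection or in culture.

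Values are the deposited log2 expression values, and a fold is the difference of 2 log2 values. With 1 library per group there is no replicate check and no p-value. A gene counts as measured in a comparison when its value in at least 1 of the 2 libraries reached the median nonzero value of the pair, and as higher or lower when it differed by at least 2-fold. Estimated depth was about 15500000 reads for siSTAU1, 18100000 for siUPF1, 15400000 for siControl, 32900000 for Differentiation and 18300000 for Nondifferentiation. Intervals given below are 95% counting intervals from these estimates and leave out the unknown spread between cultures. STAU1 stood at 11.34 in siSTAU1 against 12.87 in siControl, and UPF1 at 9.20 in siUPF1 against 10.74 in siControl, and each siRNA library was the lowest of the 5 for its own target. All 12 neuroblastoma markers, among them GATA3, HAND2 and DBH, were above 0 in every library, but their levels differed. In Differentiation 3 of 11 measured were at least 2-fold lower, with TH at a log2 fold of -3.23 and ISL1 at -2.90. CHGA was the 1 that was at least 2-fold higher, at 1.60. In siControl against Nondifferentiation 2 of 10 measured were at least 2-fold lower, TH at -2.13 and DBH at -1.12. In siSTAU1 and siUPF1 0 of 9 measured reached 2-fold. Epithelial markers were uneven: 10 of 10 were above 0 in siSTAU1 and 7 of 10 in siUPF1, against 5 of 10 in siControl, and 10 of 10 in Differentiation against 5 of 10 in Nondifferentiation. Their summed linear value was 1085 in siSTAU1 and 334 in siUPF1, against 482 in siControl, and 2209 in Differentiation against 479 in Nondifferentiation. MUC1 alone gave 2056 of this in Differentiation and 419 in Nondifferentiation. Without MUC1 the sum was 646 in siSTAU1 and 152 in siUPF1, against 64.4 in siControl, and 153 in Differentiation against 59.8 in Nondifferentiation. CDH1, ESRP1 and ELF3, which define epithelial cells, were listed at 0 in siUPF1, siControl and Nondifferentiation. Mesenchymal markers had a summed linear value of 64002 in siSTAU1 and 61468 in siUPF1, against 59581 in siControl, and 107527 in Differentiation against 52013 in Nondifferentiation, most of it FN1. Without FN1 the sum was 6561 in siSTAU1 and 8340 in siUPF1, against 6453 in siControl, and 6166 in Differentiation against 7234 in Nondifferentiation. Of the 5 mesenchymal markers measured in Differentiation, 2 were positive and 3 negative, with VIM at a log2 fold of -1.25. SOX10 of glia and PTPRC of blood cells were listed at 0 in all 5 libraries. The part of these markers in the values below was not tested.

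An SR protein joins RNA-recognition motifs to a tail rich in arginine and serine, binds exonic enhancers and helps the spliceosome to define an exon. hnRNPs coat nascent RNA through RNA-recognition or KH domains and often oppose SR proteins at the same exons. Many genes of both families control their own output: when the protein is abundant it promotes inclusion of a cassette exon with a premature stop codon, a poison exon, and the mRNA is then degraded by nonsense-mediated decay, for which the helicase UPF1 is essential. In neuronal differentiation these families are known to take part in wide changes of alternative splicing.

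The GENCODE 29 annotation, on GRCh38, shows how many members have annotated decay transcripts. Of 39 members, 27 had at least 1 transcript of the nonsense-mediated decay class. Among the 35 members whose mean value over the 5 libraries reached the median of nonzero values, 77.1% had one, against 46.5% of 7808 protein-coding genes of the files chosen the same way. In 12 members the stop codon of such a transcript lay inside an internal exon that overlaps no exon of the consensus coding transcripts: SRSF3, SRSF4, SRSF6, SRSF7, SRSF9, SRSF11, SRSF12, TRA2B, HNRNPH1, HNRNPL, HNRNPLL and HNRNPU. The share of all genes with such an exon was not counted, so this number has no background. The annotation places the premature stop codon of a decay transcript in the exons of all 12 members, and those of 8 are printed here. Each line runs from the first base of the exon, 5′ to 3′ on the strand of the gene, to the premature stop codon in capitals, as read from the GENCODE 29 transcripts.
TRA2B: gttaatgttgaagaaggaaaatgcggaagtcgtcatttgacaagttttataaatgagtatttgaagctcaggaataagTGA
SRSF7: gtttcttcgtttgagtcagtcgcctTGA
SRSF3: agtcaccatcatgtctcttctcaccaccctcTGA
SRSF4: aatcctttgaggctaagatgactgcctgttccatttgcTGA
SRSF6: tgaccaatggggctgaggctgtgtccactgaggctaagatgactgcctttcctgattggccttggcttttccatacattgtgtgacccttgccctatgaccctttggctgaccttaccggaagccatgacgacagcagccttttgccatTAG
SRSF11: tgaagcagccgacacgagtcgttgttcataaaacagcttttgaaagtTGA
HNRNPH1: cgttggtaacggaaagcgacctgTAA
HNRNPL: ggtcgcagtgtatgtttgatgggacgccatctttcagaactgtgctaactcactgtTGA

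The TRA2B exon lies at chr3:185931577-185931852 on the minus strand and is 276 bases long, with 195 bases after the stop. The SRSF7 exon, at chr2:38748898-38749346 on the minus strand, and the SRSF3 exon, at chr6:36599821-36600276 on the plus strand, are 449 and 456 bases long, with the stop after 25 and 31 bases. The remaining exons shown are at chr1:29159864-29160058 for SRSF4 and chr5:179621843-179621976 for HNRNPH1, both on the minus strand, at chr20:43459153-43459420 for SRSF6 and chr1:70231859-70231975 for SRSF11, both on the plus strand, and at chr19:38841613-38841682 for HNRNPL on the minus strand. The SRSF4 and SRSF6 exons hold an identical run of 20 bases, tgaggctaagatgactgcct, before their stop codons. No other pair within a family shared more than 10 bases, and over 63 pairs from different families the longest shared run was 5 to 10 bases. The deposited value is 1 number per gene, so it sums productive and poison-exon mRNAs where they use the same polyadenylation site, and the share of either form was not measured. For TRA2B, SRSF3, SRSF4, SRSF6 and SRSF11, no annotated decay transcript ends within 100 bases of the end of a consensus coding transcript. SRSF7, HNRNPH1 and HNRNPL each have 1 that does.

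**Figure D1:**
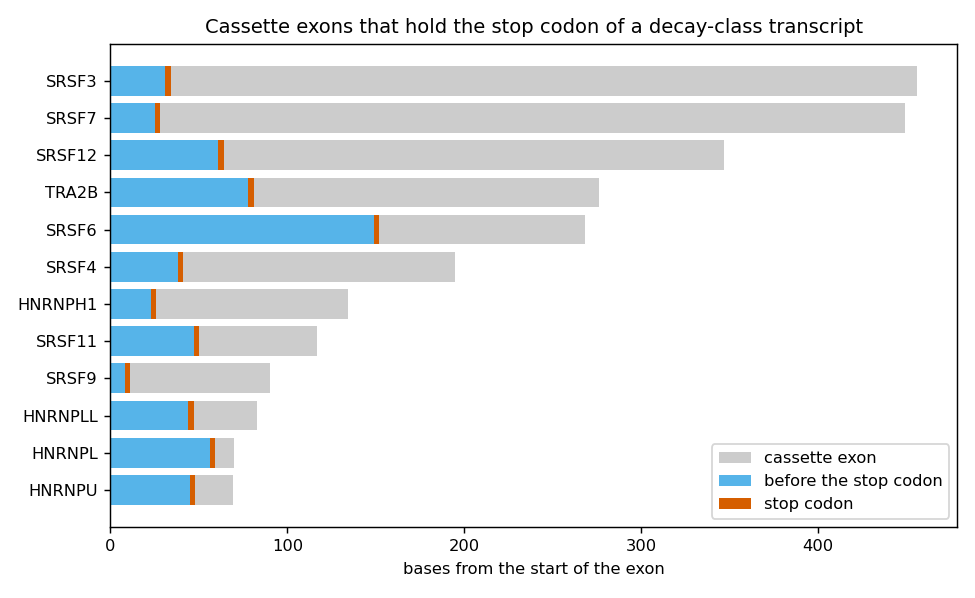
Length of the 12 cassette exons, in bases from the start of the exon, with the stretch before the premature stop codon in blue and the stop codon in orange. The stop lies after 25 of 449 bases in SRSF7 and after 56 of 70 bases in HNRNPL.

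Most members were among the abundant mRNAs of the line. Reads come from 3' ends, so a value does not scale with transcript length. Of the 35 members measured in the 4 comparisons, 27 lay at or above the 90th percentile of nonzero genes in Nondifferentiation, and the median member lay at the 96.6 percentile. HNRNPF, which binds runs of G, was the highest there at 15.33, ahead of HNRNPK, a KH-domain protein of C-rich RNA, at 14.96. SRSF1, the founding SR protein, was the highest SR protein at 14.10. SRSF12 was the lowest measured member at 9.08, from about 508 reads. The counting SE of a member's fold was between 0.01 and 0.09 over the 4 comparisons.

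Not measured in any comparison were 4 retrocopies of HNRNPC. HNRNPCL1, HNRNPCL3 and HNRNPCL4 had identical values in every library, 4.05 in siSTAU1, 4.29 in siUPF1, 5.34 in siControl, 2.81 in Differentiation and 4.19 in Nondifferentiation, so their reads cannot be told apart. HNRNPCL2 was listed at 0 in siUPF1 and rested on about 1 read in siControl and Nondifferentiation. HNRNPA1L2, an intronless copy of HNRNPA1, was measured, but could share reads with HNRNPA1. The labels do not say whether counting used strand, and on GRCh38 the last exons of HNRNPAB, HNRNPH3, HNRNPUL1, SRSF2 and SRSF9 overlap PHYKPL, RUFY2, TGFB1, MFSD11 and GATC on the opposite strand, while HNRNPH2 and HNRNPUL2 overlap read-through genes on their own strand. The values of these members are therefore uncertain.

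**Figure D2:**
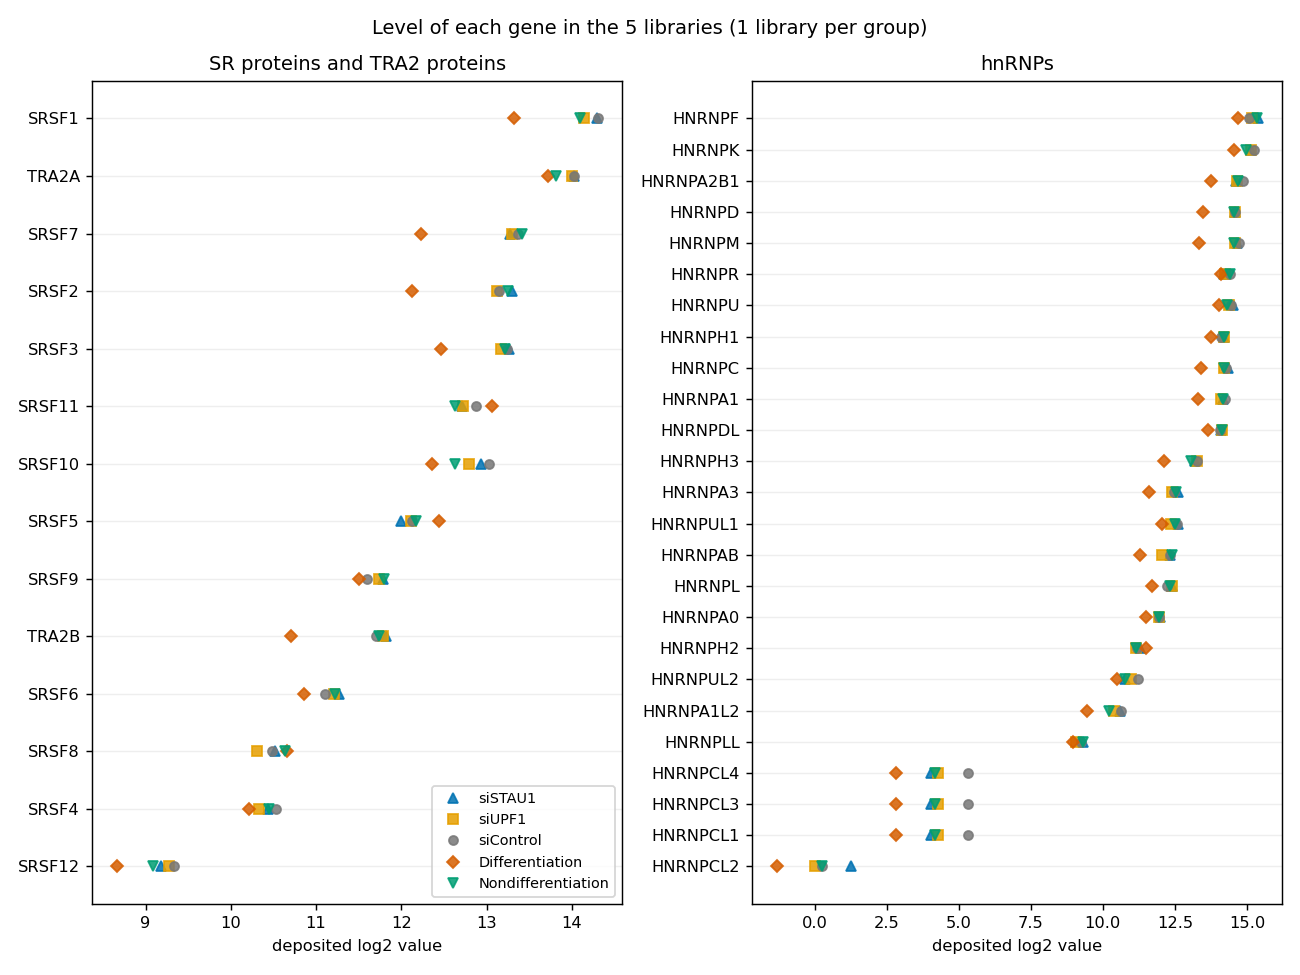
Deposited log2 value (x axis) of each of the 39 genes in the 5 libraries, 1 symbol per library, with genes ordered by Nondifferentiation. Differentiation lies left of the other 4 libraries for most genes and right of them for SRSF5, SRSF8, SRSF11 and HNRNPH2, and a gene listed at 0 is drawn at 0.

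Most SR protein and hnRNP mRNAs were lower in Differentiation than in Nondifferentiation. Of 35 measured members, 31 had the lower value in Differentiation, as 49.1% of all measured genes did, and 4 had the higher value, as 50.8% did. At least 2-fold lower were 6 members (HNRNPM, SRSF7, SRSF2, HNRNPAB, HNRNPD and TRA2B), against 10.9% of 9064 measured genes, and 0 were at least 2-fold higher, against 10.4%. At 1.5-fold the counts were 16 lower and 0 higher, with 21.7% lower and 21.8% higher among all genes. The median log2 fold of the members was -0.46, and that of all measured genes was 0.02. Most members were thus moderately lower, and all of them lay inside the middle 95% of measured genes, which reached from -2.06 to 1.94.

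The upper part of the deposited values was nearly the same in all 5 libraries, with a maximum of 18.01 and upper quartiles of 8.63 to 8.64, while 478 genes were below 0 in Differentiation and 0 in each other library. Lower was therefore read as a lower place relative to the other mRNAs of the same library. In a bulk sample fewer cells with an mRNA and less mRNA per cell cannot be told apart. The 39 members made up 1.34% of the summed linear values in Differentiation, against 2.03% in Nondifferentiation. SR proteins made up 0.347% in Differentiation against 0.474% in Nondifferentiation, and hnRNPs 0.992% against 1.55%. In siSTAU1, siUPF1 and siControl the members made up 2.12%, 2.03% and 2.12%. The Differentiation library therefore had the lowest share of all 5, for both families. Differentiation lay below all other 4 libraries for 31 members, where 42.8% of 8210 genes did, and above all of them for 4 members, where 37.5% did. Those 4 libraries differed among themselves by a median range of 0.21 over the members and 0.33 over all genes.

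**Figure D3:**
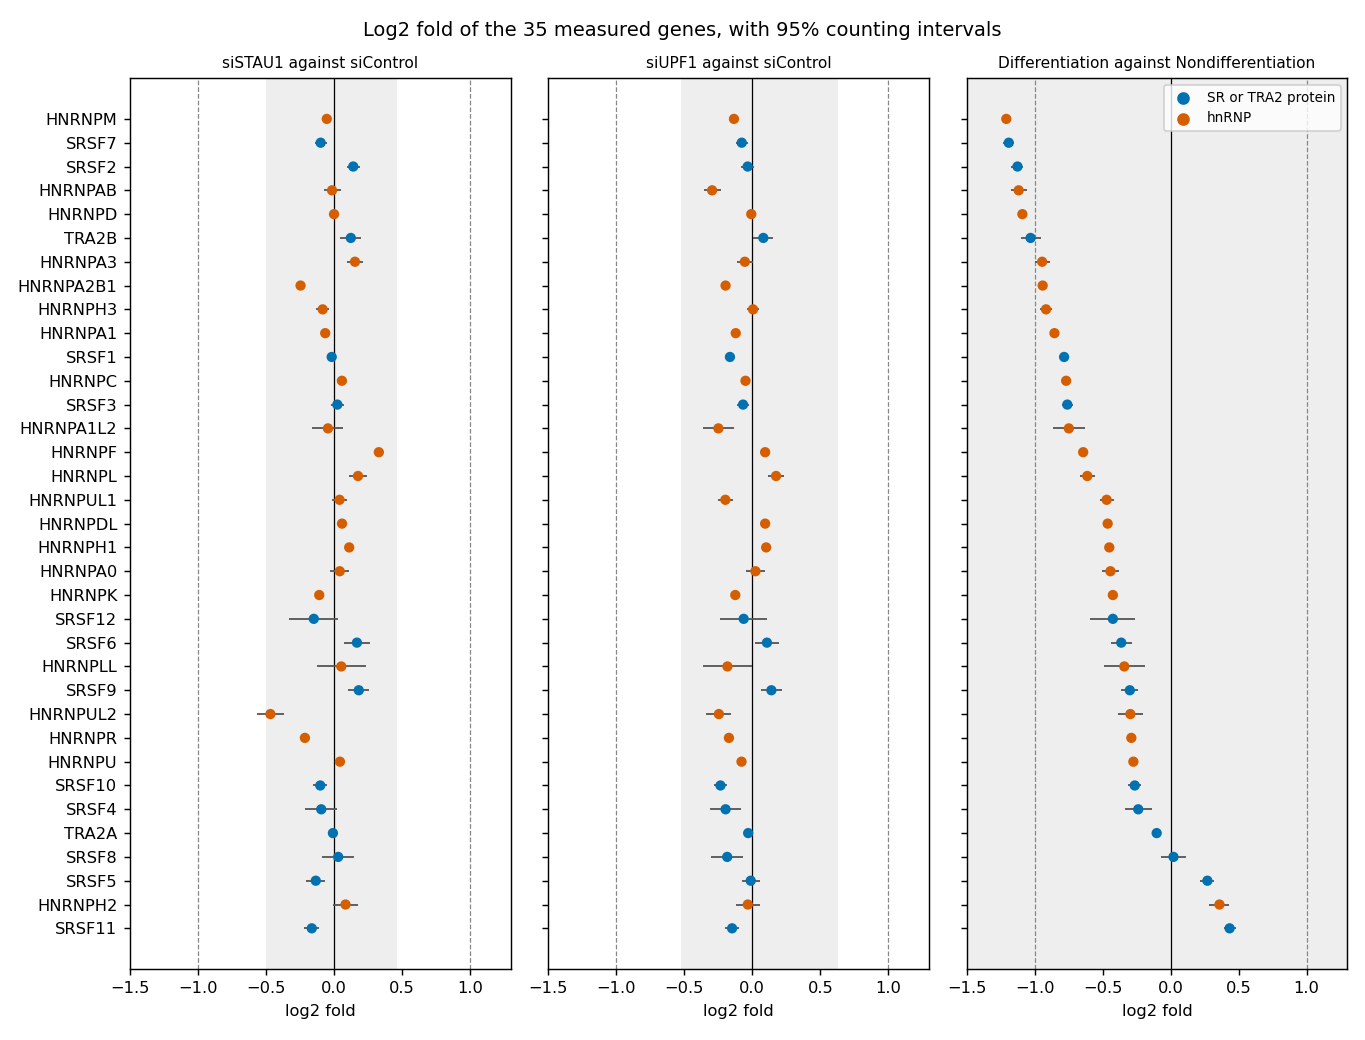
Log2 fold (x axis) of the 35 measured genes in 3 comparisons, SR and TRA2 proteins in blue and hnRNPs in orange, with 95% counting intervals, dashed lines at 2-fold and the middle 95% of all measured genes in grey. In Differentiation the genes spread from -1.21 for HNRNPM to 0.43 for SRSF11, and in both knockdowns they stay between -0.47 and 0.33.

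Among SR proteins the lowest log2 folds were those of SRSF1, SRSF2, SRSF3, SRSF7 and TRA2B. SRSF7, an SR protein with a zinc knuckle that also serves mRNA export, stood at 12.23 in Differentiation against 13.42 in Nondifferentiation, with 13.27 in siSTAU1, 13.29 in siUPF1 and 13.37 in siControl. This is a log2 fold of -1.19, with an interval of -1.23 to -1.15. Its closest relative SRSF3, the smallest SR protein, went the same way with a log2 fold of -0.76, at 12.46 in Differentiation against 13.22 in Nondifferentiation. SRSF2, long known as SC35 and used as a marker of nuclear speckles, stood at 12.13 in Differentiation against 13.26 in Nondifferentiation, with 13.29 in siSTAU1, 13.12 in siUPF1 and 13.15 in siControl. The log2 fold was -1.13, and Differentiation was by far the lowest of the 5. SRSF1, which promotes use of nearby splice sites, stood at 13.32 in Differentiation against 14.10 in Nondifferentiation, a log2 fold of -0.78.

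The TRA2 pair parted. TRA2B, a homologue of the fly sex-determination factor Transformer-2, stood at 10.71 in Differentiation against 11.74 in Nondifferentiation, with 11.82 in siSTAU1, 11.78 in siUPF1 and 11.70 in siControl. Its log2 fold of -1.03 has an interval of -1.10 to -0.96, which spans the 2-fold threshold. TRA2A, the other homologue and the more abundant of the pair, stood at 13.72 in Differentiation against 13.82 in Nondifferentiation, a log2 fold of -0.10. The pair was thus farther apart in Differentiation than in Nondifferentiation.

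SRSF11, SRSF5 and SRSF8 were level or higher in Differentiation, and the remaining SR proteins were lower by less than those above. SRSF11, an SR protein of larger size named p54, stood at 13.07 in Differentiation against 12.63 in Nondifferentiation, with 12.71 in siSTAU1, 12.73 in siUPF1 and 12.88 in siControl. Its log2 fold was 0.43, from 0.39 to 0.48, the highest of all members. SRSF5, an SR protein with a pair of RNA-recognition motifs, stood at 12.44 in Differentiation against 12.17 in Nondifferentiation, with 12.00 in siSTAU1, 12.12 in siUPF1 and 12.13 in siControl. The log2 fold of SRSF5 was 0.27, while its relatives SRSF4 and SRSF6 had -0.24 and -0.36. SRSF8, a retrocopy related to SRSF2, had 0.02 with a counting interval that held 0, the only measured member of which this was true in this pair. SRSF9, the closest relative of SRSF1, had -0.30. SRSF10, which turns into a general repressor of splicing when dephosphorylated, had -0.26, and its relative SRSF12 had -0.42. Over the 14 SR and TRA2 proteins 11 were negative, 3 were at least 2-fold lower, and the median log2 fold was -0.33.

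Of the 21 measured hnRNPs 20 were negative in Differentiation, with a median log2 fold of -0.61, and 3 were at least 2-fold lower. HNRNPM, a splicing regulator that binds GU-rich RNA, was the lowest of all measured members. It stood at 13.33 in Differentiation against 14.53 in Nondifferentiation, with 14.67 in siSTAU1, 14.59 in siUPF1 and 14.72 in siControl. The log2 fold of -1.21, from -1.24 to -1.18, is 2.31-fold lower.

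The D group, proteins that bind AU-rich elements as well as nuclear RNA, came next. HNRNPD, also called AUF1 and known for its part in mRNA turnover, stood at 13.46 in Differentiation against 14.55 in Nondifferentiation, with 14.58 in siSTAU1, 14.57 in siUPF1 and 14.58 in siControl. The 4 libraries other than Differentiation were within 0.03 of each other, the narrowest range of any measured member, and the log2 fold was -1.09. HNRNPAB stood at 11.27 in Differentiation against 12.39 in Nondifferentiation, with 12.33 in siSTAU1, 12.04 in siUPF1 and 12.34 in siControl. Its log2 fold was -1.12. HNRNPDL, the third of the group, had a smaller one of -0.46.

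In the A group, antagonists of SR proteins in exon choice, all 5 measured genes were negative. HNRNPA2B1, which also carries mRNAs in neuronal processes, had -0.94, HNRNPA3 had -0.94 and HNRNPA1 had -0.85. HNRNPA1L2 had -0.75 and the intronless HNRNPA0 had -0.44. HNRNPC, which binds runs of U and masks cryptic exons, had -0.77. The folds of the A group spanned 0.50 on the log2 scale.

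The F and H group, which bind runs of G, was the most divided, over 1.27 on the log2 scale. HNRNPH3 had -0.92, HNRNPF had -0.64 and HNRNPH1 had -0.45. HNRNPH2, an X-linked near-relative of HNRNPH1, stood at 11.50 in Differentiation against 11.14 in Nondifferentiation, with 11.28 in siSTAU1, 11.16 in siUPF1 and 11.19 in siControl. It was the 1 measured hnRNP that was higher, with a log2 fold of 0.36.

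The other measured hnRNPs were negative as well. HNRNPL, which binds CA repeats, had -0.61 and its relative HNRNPLL had -0.34. HNRNPK had -0.42 and HNRNPR, a relative of SYNCRIP, had -0.29. In the U group of scaffold-attachment proteins, HNRNPUL1 had -0.47, HNRNPUL2 had -0.30 and HNRNPU itself had -0.27.

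By annotation of a cassette exon holding the stop codon the picture in Differentiation was mixed, and no difference between these sets was tested. In Differentiation the 12 members with a cassette exon holding the stop codon had a median log2 fold of -0.39 and 2 of them were at least 2-fold lower. The 23 measured members without one had -0.64, with 4 at least 2-fold lower. Another list of 16 members, drawn up for regulated decay isoforms without a cited source, had a median of -0.69, with 5 at least 2-fold lower. It leaves out SRSF9, SRSF11, SRSF12 and HNRNPLL, which have such a cassette exon.

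Partners of the members were divided in Differentiation. Of 33 core spliceosome genes 32 were measured, 10 were at least 2-fold lower, 0 were higher and the median log2 fold was -0.68. SNRPD1 and SNRPF, Sm proteins of the spliceosomal snRNPs, had -1.76 and -1.73, while the U2 snRNP component SF3B1 had 0.04 and the tri-snRNP protein PRPF6 had 0.11. Of 22 other symbols of the wider hnRNP family, among them the older names HNRPDL and HNRPLL that the files do not use and the members HNRNPDL and HNRNPLL, 18 were measured, with 1 at least 2-fold lower, 1 higher and a median of -0.50. DAZAP1 had -1.19 and the splicing repressor PTBP1 had -0.96, while PCBP4 and PCBP3, poly(C)-binding proteins, had 0.25 and 1.13.

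SR-related proteins, which carry arginine- and serine-rich stretches without being SR proteins, lay on both sides of 0. Of 33, 32 were measured, 18 were positive and 14 negative, and the median log2 fold was 0.11. PNISR was at least 2-fold higher at 1.09 and the cyclin CCNL2 had 0.77, while RSRC1 had -0.64 and the helicase DDX46 had -0.62. Of 11 kinases and import receptors of SR proteins, 10 were measured, with 1 higher, 0 lower and a median of 0.02. CLK4 and CLK1, nuclear kinases that phosphorylate SR proteins, had 1.20 and 0.86. SRPK1, the cytoplasmic kinase that sends SR proteins to the nucleus, had -0.97, and CLK3 had -0.47.

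Cell cycle genes were lower in Differentiation as well. All 16 mitotic genes were at least 2-fold lower in Differentiation, with a median log2 fold of -2.55, and their summed linear value was 8885 in Differentiation against 47726 in Nondifferentiation. Their part in the members' values was not tested.

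**Figure D4:**
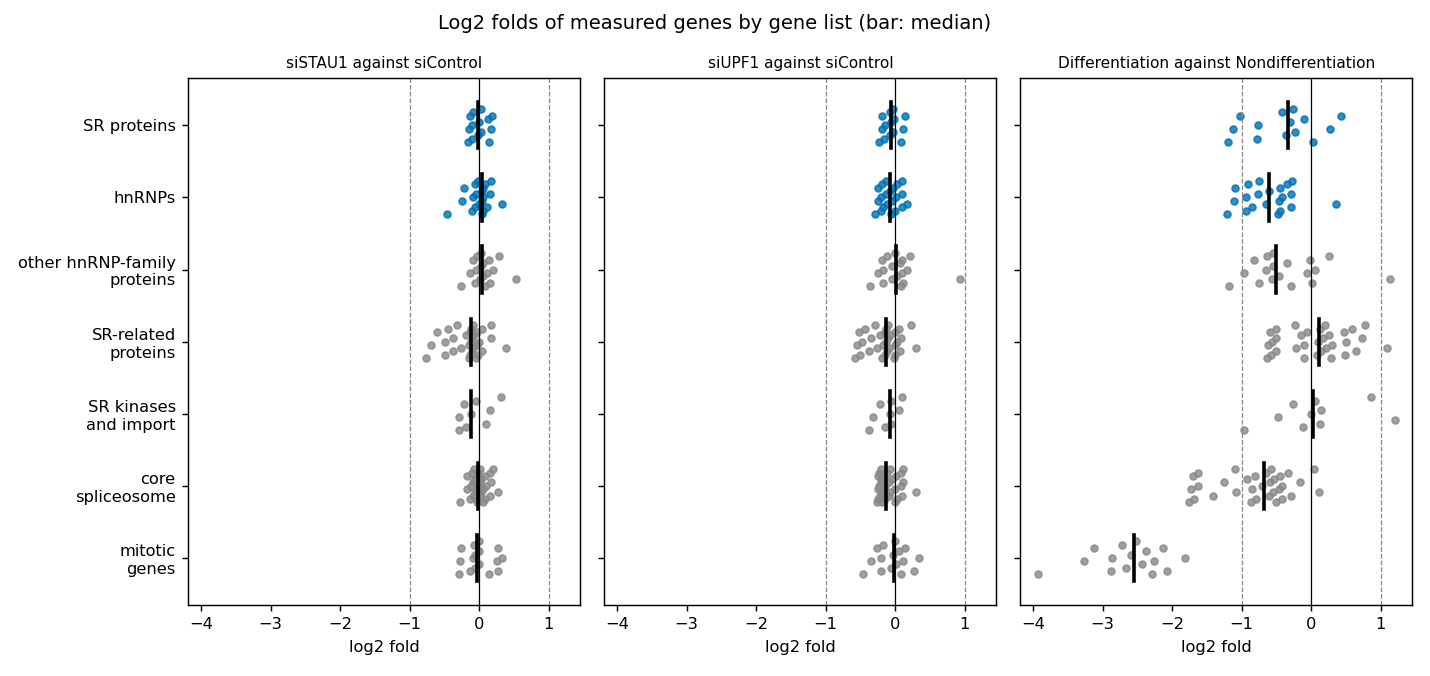
Log2 folds (x axis) of measured genes by gene list, 1 dot per gene and a black bar at the median, with SR proteins and hnRNPs in blue and dashed lines at 2-fold. In Differentiation the medians are -0.33 for SR proteins, -0.61 for hnRNPs, 0.11 for SR-related proteins, -0.68 for the core spliceosome and -2.55 for mitotic genes.

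With UPF1 depleted, no measured SR protein or hnRNP mRNA differed by as much as 1.5-fold from siControl, as was true of most measured genes. Of the 35 measured members, 27 have annotated decay transcripts. Of 35 measured members 0 were at least 2-fold higher, against 0.401% of 8475 measured genes, and 0 were lower, against 0.142%. At 1.5-fold both counts were again 0, against 3.0% higher and 1.56% lower. The members ranged from -0.30 to 0.17 with a median log2 fold of -0.07, and that of all measured genes was -0.01. Negative were 26 of 35, against 51.8% of all genes, and positive were 9, against 47.8%. Against Nondifferentiation in place of siControl, 18 were positive and 16 negative, with a median of 0.019.

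HNRNPL had the highest log2 fold in siUPF1, 0.17, at 12.41 in siUPF1 against 12.24 in siControl, with 12.42 in siSTAU1, 11.71 in Differentiation and 12.32 in Nondifferentiation. SRSF9 stood at 11.74 in siUPF1 against 11.60 in siControl, with 11.78 in siSTAU1, 11.50 in Differentiation and 11.80 in Nondifferentiation, a log2 fold of 0.14. SRSF6, an SR protein whose poison exon is shown above, stood at 11.21 in siUPF1 against 11.10 in siControl, with 11.27 in siSTAU1, 10.86 in Differentiation and 11.22 in Nondifferentiation, a log2 fold of 0.11. For all 3 genes siControl was the lowest library after Differentiation, and siSTAU1 was as high as siUPF1 or higher. The siUPF1 values therefore did not stand out among the siRNA libraries.

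At the other end, HNRNPAB had the lowest log2 fold in siUPF1, -0.30, at 12.04 in siUPF1 against 12.34 in siControl. The siUPF1 value was also the lowest of the 4 libraries other than Differentiation. HNRNPA1L2 stood at 10.39 in siUPF1 against 10.64 in siControl, with 10.59 in siSTAU1, 9.46 in Differentiation and 10.21 in Nondifferentiation, a log2 fold of -0.25. HNRNPUL2 stood at 10.98 in siUPF1 against 11.23 in siControl, also -0.25.

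Members with and without an annotated cassette exon holding the stop codon are set side by side for siUPF1, with no test of their difference. Members without such an exon can still have decay transcripts, as SRSF1, SRSF2, TRA2A and HNRNPD do. The 12 members with a cassette exon holding the stop codon had a median log2 fold of -0.07, from -0.20 to 0.17, with 5 positive and 7 negative. The 23 measured members without one had -0.12, with 4 positive and 19 negative. Of the genes whose exons are shown, TRA2B had 0.08, SRSF7 -0.08, SRSF3 -0.07, SRSF4 -0.20, SRSF11 -0.15 and HNRNPH1 0.10. The other list of 16 members, drawn up for regulated decay isoforms, had a median of -0.05, with 4 positive and 12 negative. A change in the share of the decay isoform would show in the gene value only as far as it moves the sum of isoforms, so these values say nothing of splicing.

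The partner lists were close to level in siUPF1, and in none of them did a gene reach 2-fold. Core spliceosome genes had a median log2 fold of -0.13, SR-related proteins -0.13 and kinases and import receptors -0.08. The wider hnRNP family had 0.01, with PCBP3 at 0.93. Among SR-related proteins the zinc-finger protein ZRANB2 had -0.58 and DDX46 had -0.54, while the cyclin CCNL1 had 0.29. Mitotic genes had a median of -0.02.

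With STAU1 depleted the members were likewise close to siControl. Of 35 measured, 0 were at least 2-fold higher, against 0.0946% of 8454 genes, and 0 were lower, against 0.106%. No member reached 1.5-fold, against 1.02% higher and 1.29% lower. The median log2 fold was 0.00, with 17 positive, against 50.7% of all genes, and 17 negative, against 48.9%, and that of all measured genes was 0.01.

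HNRNPUL2 had the lowest log2 fold in siSTAU1, -0.47, with an interval of -0.57 to -0.37. It stood at 10.76 in siSTAU1 against 11.23 in siControl, with 10.98 in siUPF1, 10.48 in Differentiation and 10.77 in Nondifferentiation. The siControl value was the highest of the 5, and against Nondifferentiation the siSTAU1 fold was -0.0094. HNRNPA2B1 stood at 14.62 in siSTAU1 against 14.87 in siControl, with 14.67 in siUPF1, 13.75 in Differentiation and 14.69 in Nondifferentiation, a log2 fold of -0.25. HNRNPR stood at 14.21 in siSTAU1 against 14.43 in siControl, with 14.26 in siUPF1, 14.11 in Differentiation and 14.40 in Nondifferentiation, a log2 fold of -0.21.

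HNRNPF had the highest log2 fold in siSTAU1, 0.33, with an interval of 0.31 to 0.35. It stood at 15.40 in siSTAU1 against 15.07 in siControl, with 15.16 in siUPF1, 14.69 in Differentiation and 15.33 in Nondifferentiation. Here too siControl was the lowest library after Differentiation. SRSF9 and HNRNPL each had 0.18. In the partner lists no gene reached 2-fold, and SR-related proteins had a median of -0.12, with 26 of 32 negative, PRPF38B at -0.77 and PNISR at -0.69. Both knockdown comparisons share the siControl library, so a value particular to it enters both.

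How far 2 libraries without a knockdown differed is shown by siControl against Nondifferentiation. Of 35 members 0 were at least 2-fold higher, against 0.222% of 8547 genes, and 0 were lower, against 0.573%. At 1.5-fold both counts were 0, against 2.26% higher and 3.21% lower. Positive were 21 members, against 50.7% of all genes, and negative 14, against 49.0%. The members ranged from -0.27 to 0.46 with a median log2 fold of 0.03. HNRNPUL2 had 0.46, HNRNPA1L2 0.42 and SRSF10 0.40, while HNRNPF had -0.27, SRSF9 -0.20 and SRSF8 -0.15. SRSF10 stood at 13.03 in siControl against 12.63 in Nondifferentiation, with 12.93 in siSTAU1, 12.80 in siUPF1 and 12.37 in Differentiation. SRSF8 stood at 10.49 in siControl against 10.64 in Nondifferentiation, with 10.52 in siSTAU1, 10.30 in siUPF1 and 10.66 in Differentiation. The members' folds in siSTAU1, from -0.47 to 0.33, and in siUPF1, from -0.30 to 0.17, were of the size seen between these libraries. These libraries differ in siRNA and in the retinoic acid on their labels. The siControl library is also the reference of both knockdown comparisons, so a value particular to it enters all of these folds. Their sizes are therefore not independent of each other. In Differentiation 16 members went beyond 1.5-fold, all of them lower, where 21.7% of all measured genes were lower and 21.8% higher. Between siControl and Nondifferentiation 0 members did, where 3.21% of all measured genes were lower and 2.26% higher.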

How the data were processed

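Per the labels' protocols, Trizol-extracted SH-SY5Y RNA (500 ng) was made into 3' end libraries with Lexogen's QuantSeq kit. The authors deposited 1 log2 value per gene symbol and library. The submitters' processing notes list Bowtie2, edgeR and hg19 but neither roles nor versions. How reads were counted, and on which annotation and strand, was not given. The maximum of the deposited log2 values was 18.01 in each library and 100% of linear values were multiples of 1/5 (tolerance 0.001). This is the pattern of quantile normalization, an inference from the values. The 478 values below 0 in Differentiation were multiples of 1/5 too, but no other library had values below 0. An exact 0 was taken as a gene without reads. The worth of 1 read was the slope of the 40 lowest distinct linear values on their rank, which gave estimated reads and counting SEs. The floors for measured genes were 7.84 for both knockdowns, 7.76 for Differentiation and 7.81 for siControl against Nondifferentiation. No test was run, with 1 library per group. Alternatives covered the filter, pseudocount, centring, fold threshold and reference library. The members and gene lists were chosen with earlier results of these data known. Every member could be named; all 5 values are given for the 3 highest and 3 lowest members of each comparison and for members past 2-fold, and up to 2 genes at each end of the other lists, after their values. Decay-class transcripts and exons came from GENCODE 29, on GRCh38, matched by symbol for 39 of 39 members. Steps were tested on simulated data. The tools were numpy 2.4.6, pandas 2.3.3 and matplotlib 3.10.9 under Python 3.11.15.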

Additional observations from a re-analysis of the deposited data

How the results depend on the processing

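A stricter filter at the upper quartile, a filter on the mean over the 5 libraries, a pseudocount of 16 and centring on the median of all measured genes changed no count of members at 2-fold in the 4 comparisons, and the Differentiation median stayed between -0.48 and -0.46. Without a filter the 4 HNRNPCL symbols entered: 10 members were then at least 2-fold lower in Differentiation with a median log2 fold of -0.61, 3 were lower in siUPF1, 1 was higher and 3 were lower in siSTAU1, and 3 were higher in siControl against Nondifferentiation. These come from few reads, and 3 of the 4 symbols share their values. At a 1.5-fold threshold 16 members were lower in Differentiation. With Nondifferentiation as the reference the siUPF1 median was 0.019 and the siSTAU1 median 0.048, with 23 members positive and 11 negative in siSTAU1. Of the 70 member folds of both knockdowns 51 then differed by more than the counting interval: in siSTAU1, HNRNPUL2 had -0.0094 against -0.47 with siControl, and HNRNPF 0.062 against 0.33. With siControl as the reference for Differentiation, an alternative added after seeing the data, the median was -0.67 and 8 members were at least 2-fold lower; TRA2B then had -0.99 and left the count, while HNRNPA1L2, HNRNPA2B1 and HNRNPH3 entered it at -1.17, -1.12 and -1.13. The cause was not tested. Shares of all genes were not computed without a filter or with another reference library, so these counts have no background. No replicate could be left out and no paired analysis was possible because each group had 1 library. Depth was not the limit for measured members, with about 508 to 38657 estimated reads each in Nondifferentiation.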

Other observations

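Symbols left out of the member list by their names also had values. HNRNPA1P10, a pseudogene named for HNRNPA1, stood at 11.42 in Differentiation against 12.52 in Nondifferentiation, with 12.70 in siSTAU1, 12.46 in siUPF1 and 12.62 in siControl. HNRNPA3P1 stood at 6.78 in Differentiation against 8.28 in Nondifferentiation. The parent genes HNRNPA1 and HNRNPA3 had log2 folds of -0.85 and -0.94 in the same pair. HNRNPU-AS1, named as an antisense RNA of HNRNPU, stood at 10.31 in siUPF1 and 10.53 in siSTAU1, against 10.75 in siControl, and at 10.38 in Differentiation against 10.59 in Nondifferentiation. Among SR-related proteins, siControl was the highest of the siRNA libraries for PNISR, at 11.82 in siSTAU1 and 12.01 in siUPF1 against 12.51 in siControl, while Nondifferentiation stood at 11.77. PRPF38B stood at 11.18 in siSTAU1 and 11.52 in siUPF1 against 11.95 in siControl, with 11.17 in Nondifferentiation.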
